A study of Mus musculus with 16 samples.

Results

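The carboxylesterases are a family of serine hydrolases, and 8 of their genes were followed here in the distal colonic epithelium of mice, out of 22396 gene symbols measured. The 8 genes were picked by symbol: *Ces1d*, *Ces1f* and *Ces1g* of the Ces1 subfamily, and *Ces2a*, *Ces2b*, *Ces2c*, *Ces2e* and *Ces2g* of the Ces2 subfamily. They were chosen with their levels in these mice already known, so that their levels and the differences between the DSS and water mice are given as a description, with no test. The cells were EpCAM+ cells sorted from the distal colons of 16 mice, 8 weeks old, with 1 library of polyadenylated RNA a mouse. EpCAM is found on the surface of epithelial cells. Dextran sulfate sodium (DSS), given in drinking water, damages the lining of the colon.

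Every mouse carried loxP-flanked *Tnfr2* alleles (Tnfr2-f/f), and the knockout mice carried the villin-Cre transgene in addition (Vil1::Cre;Tnfr2-f/f). The villin promoter drives Cre in intestinal epithelium, where exon 2 of *Tnfrsf1b*, the gene of TNFR2, is to be removed. There were 4 controls and 5 mice labelled knockout on water, and 3 controls and 4 mice labelled knockout that had received 3% DSS for 6 days by the labels. By the same labels, every mouse was dissected on day 12, so that the DSS mice were taken after DSS had ended. The 7 DSS mice were females from 2 cages, with 2 and 5 mice. Of the 9 water mice, 4 were males of 1 cage and 5 were females of another, so that sex and cage cannot be told apart, nor can treatment and cage. After DSS, injured regions were picked under a stereomicroscope. In bulk RNA of sorted cells, fewer cells of a type and less RNA per cell cannot be told apart.

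Carboxylesterases reside mostly in the lumen of the endoplasmic reticulum of liver and intestine, where they cleave ester, thioester and amide bonds of drugs and of lipids. Ces1d is a triacylglycerol hydrolase of liver and fat, and Ces1g acts on lipid esters in the liver. The Ces2 enzymes belong to the subfamily of human CES2, the intestinal enzyme that activates ester prodrugs such as irinotecan, and Ces2c hydrolyses acylglycerols.

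All 8 genes are protein-coding and lie on mouse chromosome 8 (GENCODE M21 on GRCm38). The Ces1 genes are on the minus strand, with *Ces1d* at chr8:93166068-93197838, *Ces1f* at chr8:93256236-93279747 and *Ces1g* at chr8:93302369-93337308. The Ces2 genes are on the plus strand, from *Ces2a* at chr8:104734003-104741634 and *Ces2b* at chr8:104831572-104840093 through *Ces2c* at chr8:104847068-104854483 and *Ces2e* at chr8:104926260-104934672 to *Ces2g* at chr8:104961718-104969537. Within the Ces2 subfamily, the coding sequences were 81.6% (*Ces2a* and *Ces2g*) to 92.1% (*Ces2b* and *Ces2c*) identical, and within the Ces1 subfamily 74.6% (*Ces1f* and *Ces1g*) to 81.5% (*Ces1d* and *Ces1g*). This likeness bears on the values, because short reads were divided between similar transcripts by estimation. Of the windows of 31 bases in the listed transcript of *Ces2c*, 41.8% occurred in no other gene, and 50.2% also occurred in the pseudogene *Ces2d-ps*, which the tables did not list. Of those of *Ces2a*, 62.6% occurred in no other gene, and 30.9% also occurred in the pseudogene *Gm7208*. Between 74.6% (*Ces2b*) and 94.5% (*Ces1f*) of the windows were found in no other gene for the other 6, so that the levels of *Ces2c* and *Ces2a* are the less certain.

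Upstream of their start sites, 4 of the Ces2 genes share a short run of letters. Identity of the upstream sequences as a whole was not measured. The windows of 250 bases before the start in the RefSeq table (GRCm38.p6) were available for 5 of the 8 genes, namely *Ces1g*, *Ces2a*, *Ces2c*, *Ces2e* and *Ces2g*. The last 120 bases before the start of the 4 Ces2 genes are printed because all 4 share a block there, CAATNNGAACTT. It is the only run of 12 letters with at least 10 the same in all 4 windows, and it was searched for after the sequences had been seen. Capitals mark this block, and in *Ces2g* also the reverse complement of the motif searched for GATA factors:
Ces2a (chr8:104733883-104734002, plus strand): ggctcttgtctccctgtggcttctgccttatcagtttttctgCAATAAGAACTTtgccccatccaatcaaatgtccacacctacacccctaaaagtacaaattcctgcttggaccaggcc
Ces2c (chr8:104846948-104847067, plus strand): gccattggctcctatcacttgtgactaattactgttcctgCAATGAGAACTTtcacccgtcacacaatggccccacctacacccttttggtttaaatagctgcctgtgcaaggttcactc
Ces2e (chr8:104926140-104926259, plus strand): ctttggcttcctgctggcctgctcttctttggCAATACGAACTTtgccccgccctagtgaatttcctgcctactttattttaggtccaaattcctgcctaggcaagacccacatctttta
Ces2g (chr8:104961598-104961717, plus strand): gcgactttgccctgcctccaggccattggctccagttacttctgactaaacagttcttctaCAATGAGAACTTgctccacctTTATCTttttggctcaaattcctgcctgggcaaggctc

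The block begins at position -78 from the start site of *Ces2a*, -80 of *Ces2c*, -88 of *Ces2e* and -59 of *Ces2g*. Searched on both strands, it was found in 27 of 32851 windows (0.0822%). These include by construction the 4 member windows from which the block was taken, so that nothing is read from the share. Of the 6 Ces2 genes with a window, only these 4 held it. Both *Ces2c*, whose rescaled levels did not overlap between treatments within a genotype, and *Ces2e*, whose levels did, hold it. Of the motifs searched beside it, TATAAA was found in 12.4% of all windows and among the members in *Ces1g*, TTTATGG (CDX) in 2.43% and in *Ces1g*, and AGATAA (for GATA factors) in 9.99% and in *Ces1g* and *Ces2g*. CAAAGTCC (HNF4, 1.2% of all windows) and the HNF1 palindrome (0.00913%) were in none of the 5. A match is a description of letters only, and none of these motifs overlapped the block.

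Levels are in TPM, a unit in which reads are counted per transcript length and scaled to a fixed total, so that genes can be compared. The DSS and water mice were deposited in separate tables that had been scaled separately. Over the 11247 genes that averaged at least 1 TPM, the median log2 ratio of DSS to water was 0.30 as deposited and -0.01 after 1 rescaling of all 16 mice by median-of-ratios factors. Differences between treatments are therefore given on the rescaled scale, beside the TPM as deposited and the level relative to the geometric mean of 12 epithelial markers of the same mouse. All 12 epithelial markers averaged at least 1 TPM in each group, with summed rescaled levels of 7452 to 10214 TPM in water and 5704 to 8940 TPM in DSS mice. Leukocyte markers (18 genes) summed to 827 to 1689 TPM in water and 15.0 to 40.7 TPM in DSS mice, where *Cd8a* and *Nkg7* were at 0. Plasma cell markers (13 genes) summed to 4006 to 170819 TPM in water and 236 to 4468 TPM in DSS mice, and stromal markers (13 genes) to 352 to 1032 and 119 to 510 TPM. These markers moved with treatment, and their part in the differences between treatments was not tested. As deposited, *Tnfrsf1b* was at 11.1 to 15.5 TPM in controls and 9.23 to 14.8 TPM in mice labelled knockout on water, and at 13.3 to 22.2 and 13.5 to 27.0 TPM after DSS, so that its level did not separate the labelled genotypes. The level of the whole transcript does not show whether exon 2 was lost.

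*Ces2c* was the highest of the 8 genes in 9 of 9 water mice. On the rescaled scale, the levels of *Ces2c* in the water controls were 73.1, 58.7, 92.8 and 73.5 TPM, and in the mice labelled knockout on water 72.9, 67.6, 39.9, 88.5 and 64.8 TPM. After DSS they were 44.1, 19.1 and 25.2 TPM in controls and 17.6, 37.6, 23.1 and 20.7 TPM in mice labelled knockout. Within each genotype the DSS mice lay below the water mice without overlap on this scale. As deposited and relative to the epithelial markers, only the controls did not overlap, and DSS mouse labelled knockout 2 (44.9 TPM as deposited) lay above water mouse labelled knockout 3 (37.5 TPM). Across genotypes, DSS control 1 (44.1 TPM) lay above the lowest water mouse, labelled knockout 3 (39.9 TPM). The mean was 74.5 ± 13.99 (SD, n = 4) and 29.5 ± 13.0 TPM (n = 3) in water and DSS controls, and 66.7 ± 17.6 (n = 5) and 24.8 ± 8.85 TPM (n = 4) in mice labelled knockout. These means were 2.53-fold and 2.70-fold higher in water than in DSS mice, 1.98-fold and 2.09-fold as deposited, and 2.08-fold and 2.17-fold relative to the epithelial markers.

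*Ces2a* was lower after DSS as well. Its levels were 44.8, 34.1, 73.5 and 51.0 TPM in water controls and 48.4, 39.5, 35.3, 64.3 and 38.9 TPM in mice labelled knockout on water. After DSS they were 37.4, 19.8 and 26.3 TPM in controls and 9.42, 25.6, 20.5 and 13.4 TPM in mice labelled knockout. The mice labelled knockout did not overlap between treatments, whereas DSS control 1 reached into the range of the water controls. The mean was 1.83-fold higher in water than in DSS controls (1.43-fold as deposited, 1.504-fold relative to epithelial markers) and 2.63-fold higher in mice labelled knockout (2.04-fold and 2.10-fold).

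*Ces2g*, a less abundant member, had levels of 10.9, 14.1, 16.4 and 10.6 TPM in water controls and 9.80, 8.28, 10.3, 9.36 and 9.06 TPM in mice labelled knockout on water. After DSS its levels were 6.05, 4.96 and 9.57 TPM in controls and 4.49, 6.65, 6.04 and 5.51 TPM in mice labelled knockout. Within each genotype the rescaled levels of the treatments did not overlap, whereas they overlapped in both genotypes as deposited, and in mice labelled knockout relative to the epithelial markers. On the rescaled scale, DSS control 3 (9.57 TPM) alone reached the range of the water mice of the other genotype. The mean was 1.90-fold higher in water than in DSS controls and 1.65-fold higher in mice labelled knockout. As deposited, these folds were 1.46 and 1.28.

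*Ces2e* had overlapping levels. Its levels were 34.5, 26.9, 50.6 and 41.6 TPM in water controls and 38.9, 42.2, 28.3, 31.4 and 35.7 TPM in mice labelled knockout on water. After DSS they were 39.8, 24.7 and 26.1 TPM in controls and 20.6, 39.5, 32.1 and 21.0 TPM in mice labelled knockout. The ratio of the DSS to the water mean was 0.786 in controls and 0.802 in mice labelled knockout on the rescaled scale, but 1.00 and 1.03 as deposited, so that its direction depended on the scaling. *Ces2b* was low throughout, at 1.09 to 1.91 TPM in water and 0.635 to 2.41 TPM in DSS mice, with the ranges overlapping.

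The Ces1 genes showed no common direction. The levels of *Ces1d* were 27.4, 26.6, 23.3 and 26.3 TPM in water controls and 19.5, 18.3, 13.2, 27.2 and 20.9 TPM in mice labelled knockout on water. After DSS they were 21.2, 12.0 and 13.9 TPM in controls and 5.09, 34.9, 33.1 and 12.1 TPM in mice labelled knockout. The DSS controls lay below the water controls (1.65-fold on the rescaled scale, 1.29-fold and overlapping as deposited, and overlapping relative to the epithelial markers), and the DSS mice labelled knockout lay on both sides of the water mice. *Ces1f* had 15.7, 18.5, 17.6 and 15.8 TPM in water controls and 11.6, 10.7, 12.2, 12.2 and 10.9 TPM in mice labelled knockout on water. After DSS it had 22.0, 18.6 and 13.1 TPM in controls and 5.14, 30.4, 21.3 and 9.91 TPM in mice labelled knockout, around the water range on either side. *Ces1g* had 2.26 to 5.79 TPM in water and 1.69 to 11.8 TPM in DSS mice, the highest being DSS mouse labelled knockout 2. The ratio of the DSS to the water mean of *Ces1g* was 0.878 in controls and 1.16 in mice labelled knockout. As deposited it was 1.11 and 1.49, so that its direction in controls depended on the scaling.

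**Figure D1:**
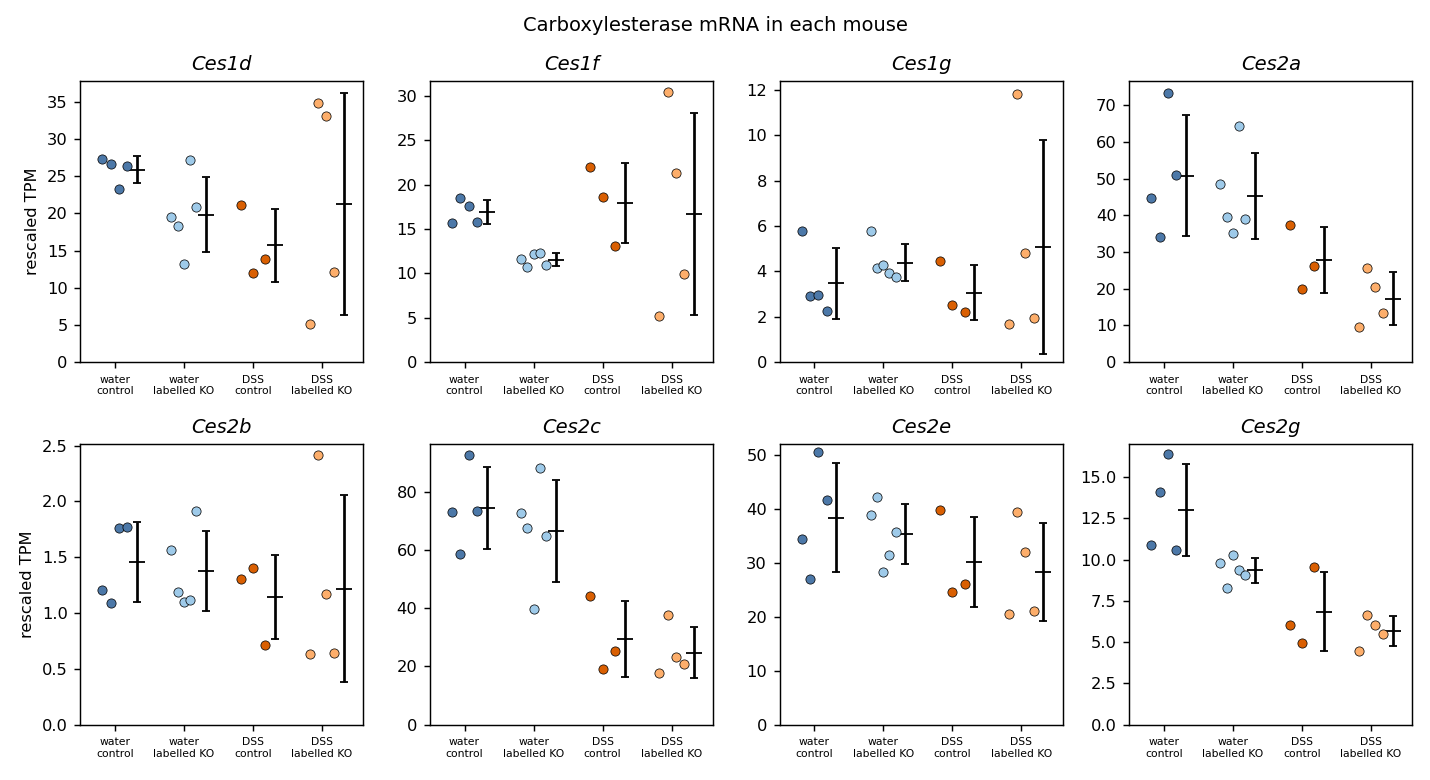
Rescaled TPM of each of the 8 genes (y axis, linear, 1 panel a gene) in each mouse (points) of the 4 groups (x axis), with the group mean and SD beside the points. *Ces2c* lies between 39.9 and 92.8 TPM in water mice and between 17.6 and 44.1 TPM in DSS mice, while the DSS points of *Ces1d* spread from 5.09 to 34.9 TPM.

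Over all 16 mice, 0 of the 8 members had rescaled DSS levels that lay wholly below or above those of water mice, where 6.96% of 11247 genes lay wholly below and 4.52% wholly above. Among controls, 3 of 8 (*Ces1d*, *Ces2c* and *Ces2g*) lay wholly lower after DSS, against 13.9% of all genes, and 0 wholly higher, against 10.7%. Among mice labelled knockout, 3 of 8 (*Ces2a*, *Ces2c* and *Ces2g*) lay wholly lower, against 17.8%, and 0 wholly higher, against 17.4%. These counts depended on the scale. As deposited, 1 of 8 lay wholly lower among controls (*Ces2c*, against 8.12% of all genes) and 1 among mice labelled knockout (*Ces2a*, against 10.1%). Relative to the epithelial markers, 2 did among controls (*Ces2c* and *Ces2g*, against 10.4%) and 1 among mice labelled knockout (*Ces2a*, against 10.9%). The members had been chosen with these levels in view, and nothing is read from these counts. The median log2 ratio of DSS to water over the 8 was -0.28, beside -0.01 over all genes tested. *Ces2a*, *Ces2c* and *Ces2g* had lower means after DSS on all 3 scales in both genotypes. *Ces1f* had higher means after DSS on all 3 scales in both genotypes, by 1.06-fold and 1.45-fold on the rescaled scale, with the ranges overlapping.

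**Figure D2:**
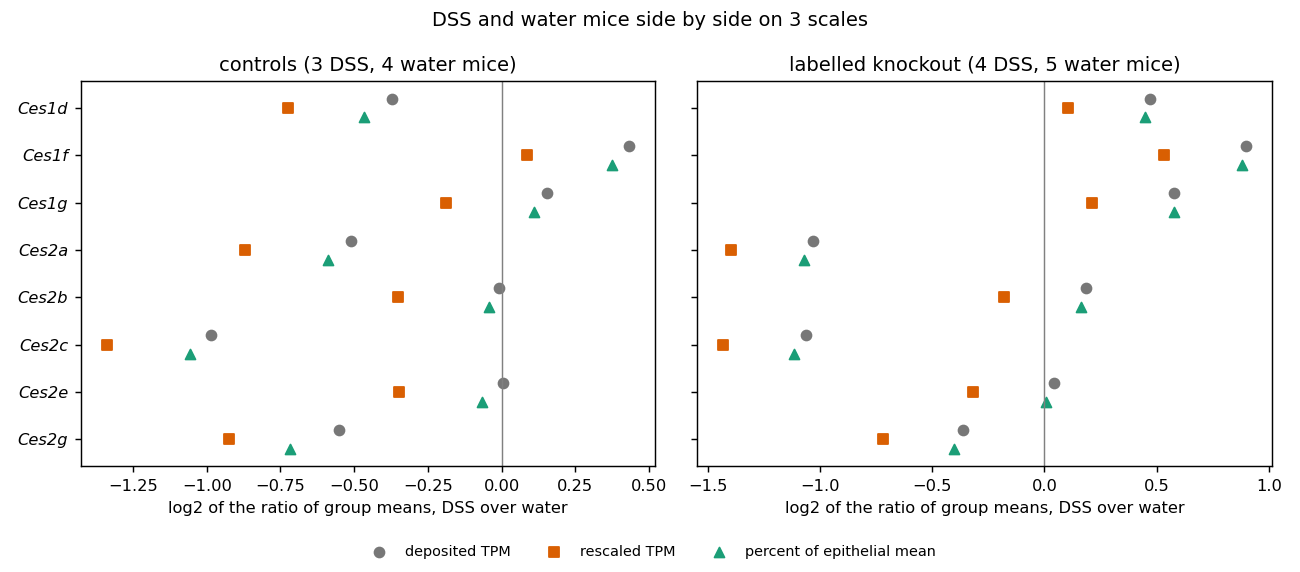
Log2 of the ratio of group means, DSS over water (x axis), for each gene (y axis) in controls (left) and mice labelled knockout (right), on 3 scales (grey circles, TPM as deposited; orange squares, rescaled TPM; green triangles, relative to 12 epithelial markers). No error is drawn, and *Ces2a*, *Ces2c* and *Ces2g* lie left of 0 on each scale while *Ces1f* lies right of it.

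Summed over the 8 genes, the rescaled level was 225 ± 40.0 TPM (SD, n = 4) in water controls, 194 ± 34.2 (n = 5) in mice labelled knockout on water, 132 ± 38.9 (n = 3) in DSS controls and 120 ± 56.3 (n = 4) in DSS mice labelled knockout. On this scale the controls did not overlap between treatments, at 183 to 279 and 103 to 176 TPM, and the mice labelled knockout did, at 144.5 to 238 and 64.7 to 189 TPM. The 5 Ces2 genes together were at 178 ± 41.96 and 95.5 ± 30.1 TPM in water and DSS controls, and at 158 ± 29.4 and 77.2 ± 26.3 TPM in the mice labelled knockout, without overlap within a genotype. As deposited and relative to the epithelial markers, both of these sums overlapped between treatments in each genotype. The 3 Ces1 genes together were at 46.3 ± 2.54 and 36.7 ± 9.71 TPM in water and DSS controls, and at 35.7 ± 5.09 and 43.1 ± 30.3 TPM in the mice labelled knockout. On the rescaled scale the Ces1 sum thus had no common direction. Its highest and lowest values were both in DSS mice labelled knockout (77.2 TPM in mouse 2 and 11.9 TPM in mouse 1). The ratio of its DSS to its water mean was 1.01 in controls and 1.55 in mice labelled knockout as deposited. Relative to the epithelial markers, that ratio was 0.959 and 1.53, so that the direction in controls depended on the scaling.

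Shares of the summed TPM and ratios between members do not depend on the scaling of a mouse. The order of the means in water mice was *Ces2c*, *Ces2a*, *Ces2e*, *Ces1d*, *Ces1f*, *Ces2g*, *Ces1g* and *Ces2b*, and each gene was above the next in 9 of 9 mice, except *Ces2a* over *Ces2e* in 8 of 9. After DSS the order over both genotypes was *Ces2e*, *Ces2c*, *Ces2a*, *Ces1d*, *Ces1f*, *Ces2g*, *Ces1g* and *Ces2b*. Neither genotype had this order by itself, since the mean of *Ces1f* was above that of *Ces1d* in controls, and the mean of *Ces1d* above that of *Ces2a* in mice labelled knockout. *Ces2e* was the highest in 4 of 7 DSS mice, and *Ces1d*, *Ces2a* and *Ces2c* in 1 each. Neighbours among the first 5 overlapped after DSS, with the upper gene above the lower in 4 to 6 of 7 mice.

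The ratio of *Ces2c* to *Ces2e* within a mouse showed the change of order. It was 2.12, 2.18, 1.84 and 1.77 in water controls and 1.88, 1.60, 1.41, 2.81 and 1.81 in mice labelled knockout on water. After DSS it was 1.11, 0.776 and 0.964 in controls and 0.854, 0.952, 0.720 and 0.985 in mice labelled knockout. All 7 DSS mice lay below all 9 water mice. This was the single pair of the 28 pairs of members (3.57%) whose ratios did not overlap between treatments, whereas 12.1% of 43903135 pairs of genes above 0 in every mouse did not. The members' share was thus no larger than that over all pairs. *Ces2c* was also the 1 member whose share did not overlap. Its share was 33.6 ± 2.68% (SD, n = 9) in water and 21.8 ± 3.90% (n = 7) in DSS mice, and 2.71% of all genes had a level relative to the summed members that lay wholly lower after DSS. Wholly higher on that measure were 14.5% of all genes and 0 members. The members are part of this sum and other genes are not, so that nothing is read from setting them side by side.

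The Ces1 genes held 15.7 to 26.2% of the summed TPM in water controls and 17.3 to 20.5% in mice labelled knockout on water. After DSS they held 27.0, 32.1 and 25.0% in controls and 18.4, 40.9, 41.7 and 28.1% in mice labelled knockout. DSS control 3 and the lowest DSS mouse, labelled knockout 1, lay within the water range, and DSS mice labelled knockout 2 and 3 had the highest shares of the 16. The mean share of *Ces1f* was 6.83 ± 1.61% in water and 13.2 ± 3.41% in DSS mice, and that of *Ces1d* 10.9 ± 2.01% and 14.2 ± 5.13%.

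**Figure D3:**
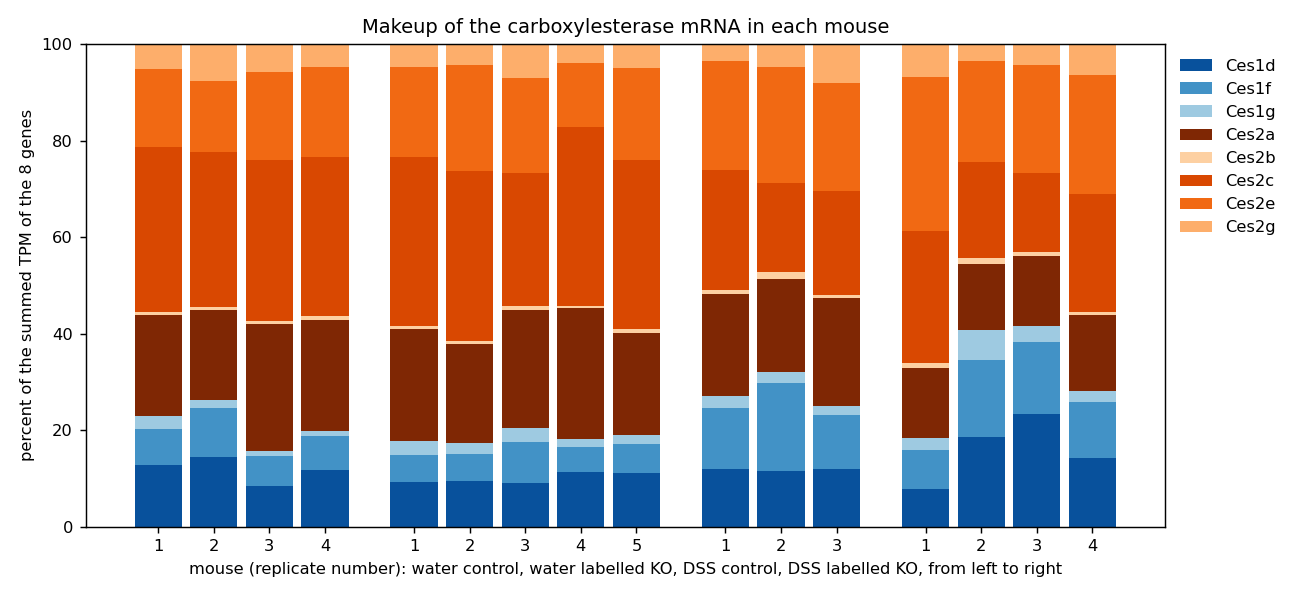
Percent of the summed TPM of the 8 genes (y axis) held by each gene (colours, blue for Ces1 and brown to orange for Ces2) in each mouse (bars, with replicate numbers on the x axis), in 4 blocks of water controls, water mice labelled knockout, DSS controls and DSS mice labelled knockout. The *Ces2c* part averages 33.6% in water and 21.8% in DSS mice.

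**Figure D4:**
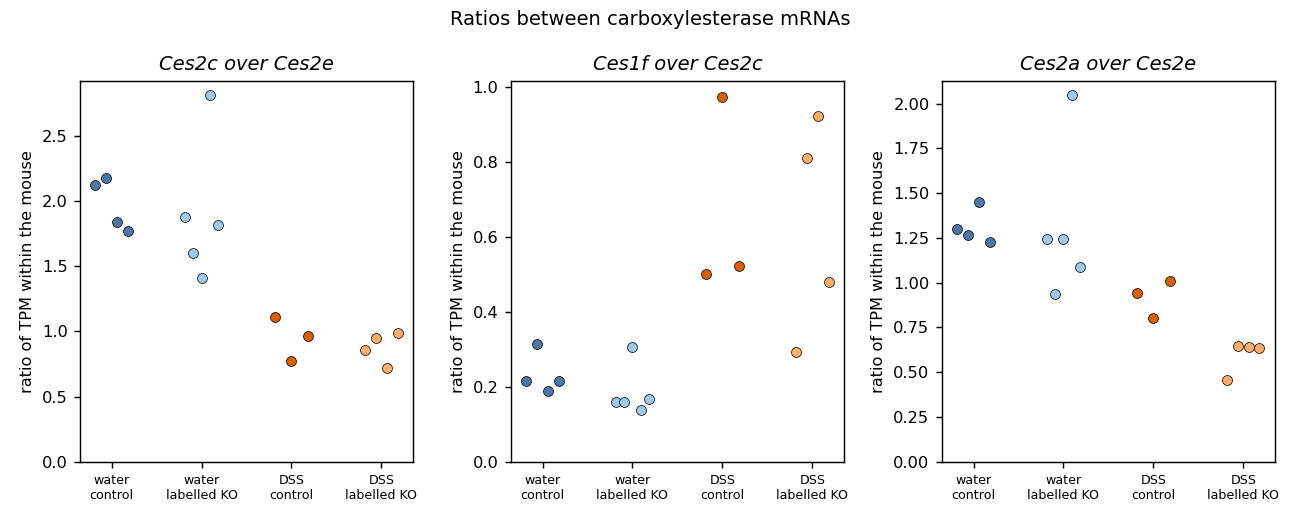
Ratio of the TPM of 2 members within each mouse (y axis, linear) in the 4 groups (x axis), 1 point a mouse. *Ces2c* over *Ces2e* is 1.41 or higher in water mice and 1.11 or lower in DSS mice, *Ces1f* over *Ces2c* runs from 0.138 to 0.314 and from 0.292 to 0.973, and *Ces2a* over *Ces2e* after DSS is 0.804 to 1.01 in controls and 0.457 to 0.647 in mice labelled knockout.

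Genotype was compared within each treatment by limma on log2(TPM + 1), with Benjamini-Hochberg adjustment over all genes tested. The intervals given are those of each gene alone, without such adjustment. None of the 8 members was called at an adjusted p under 0.05 in either treatment, where 1 of 11046 genes on water (0.00905%, *Dus2*) and 1 of 10899 after DSS (0.00918%, *Tra2a*) were called. *Dus2* and *Tra2a* were named after their values had been seen. At an unadjusted p under 0.05, 3 members were lower in mice labelled knockout on water and 0 higher, beside 2.58% of all genes lower and 5.28% in either direction. After DSS, 0 members had such a p, beside 1.21% of all genes lower and 2.65% in either direction. Which values were used to choose the members is not recorded, so that the genotype differences may not be independent of the choice.

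On water, *Ces1f* had 14.6, 16.9, 16.04 and 14.4 TPM as deposited in controls and 10.8, 9.80, 11.5, 11.1 and 10.00 TPM in mice labelled knockout. The genotypes did not overlap. The log2 fold change of *Ces1f* was -0.50 (SE 0.10, 95% interval -0.72 to -0.29, limma adjusted p = 0.865). It was lower in 5 of 5 mice labelled knockout than in any control. *Ces2g* on water had 10.1, 12.9, 15.0 and 9.68 TPM in controls and 9.17, 7.56, 9.65, 8.47 and 8.31 TPM in mice labelled knockout, again without overlap, the nearest values being 9.68 and 9.65 TPM. The log2 fold change of *Ces2g* was -0.41 (SE 0.14, interval -0.73 to -0.09, limma adjusted p = 0.865). The members not overlapping between genotypes on water were these 2 of 8, both lower in mice labelled knockout, as were 0.878% of all genes, while 0.67% lay wholly higher. Stromal marker sums on water were 680 to 1032 TPM in controls and 352 to 977 TPM in mice labelled knockout, and their part in these differences was not tested.

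*Ces1d* on water was 25.5, 24.4, 21.3 and 24.1 TPM in controls and 18.3, 16.7, 12.4, 24.6 and 19.2 TPM in mice labelled knockout, of which mouse 4 (24.6 TPM) lay within the control range. Its log2 fold change was -0.40 (SE 0.17, interval -0.78 to -0.01, limma adjusted p = 0.865). For the other 5 members on water, the log2 fold changes ran from -0.18 (*Ces2c*, interval -0.66 to 0.30) to 0.31 (*Ces1g*, interval -0.20 to 0.82), and all intervals held 0.

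After DSS, the intervals were wide. *Ces2a* had the largest difference of the 8, with 43.2, 22.5 and 32.6 TPM in controls and 11.2, 30.5, 24.2 and 15.7 TPM in mice labelled knockout, which overlapped. None of the 8 was apart between genotypes after DSS, where 1.55% of all genes lay wholly lower and 2.13% wholly higher in mice labelled knockout. The log2 fold change of *Ces2a* was -0.70 (SE 0.36, interval -1.53 to 0.12, limma adjusted p = 1.00). The log2 fold change of *Ces1f* after DSS was -0.33 (SE 0.54, interval -1.57 to 0.92), and that of *Ces1d* 0.13 (SE 0.62, interval -1.31 to 1.58). Those of the other 5 lay between -0.20 (*Ces2c*) and 0.34 (*Ces1g*), each with an adjusted p of 1.00. Whether the genotype difference of a member was unlike between treatments was not tested.

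**Figure D5:**
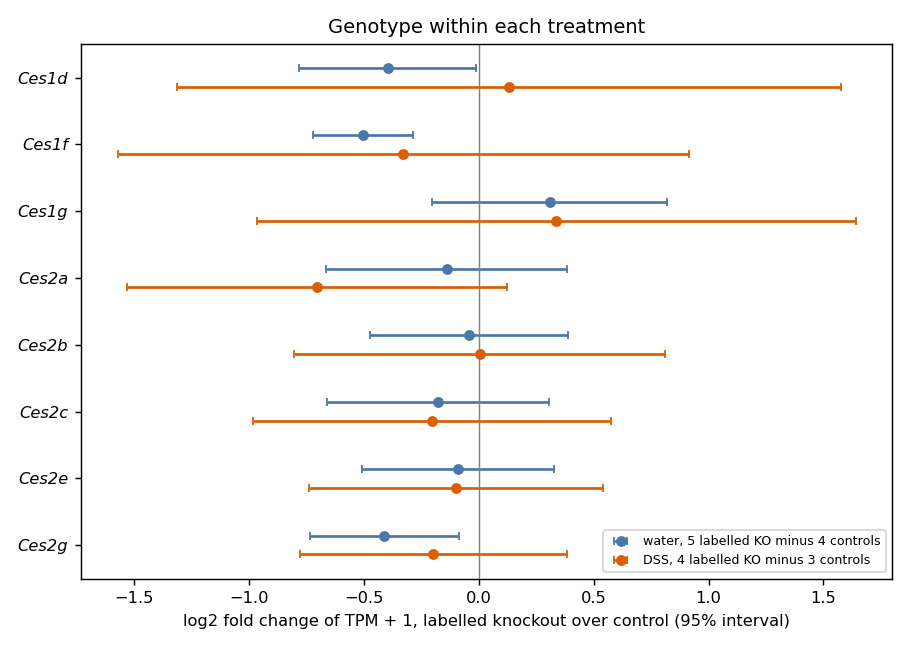
Log2 fold change of TPM + 1 in mice labelled knockout over controls (x axis) for each gene (y axis), on water (blue) and after DSS (orange), with 95% intervals from limma as bars. The intervals are those of each gene alone, not adjusted for the number of genes tested, and no member was called in either treatment. Those of *Ces1d*, *Ces1f* and *Ces2g* on water lie below 0, and all 8 intervals after DSS hold 0.

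The share of *Ces2a* separated the genotypes after DSS, an observation made after the values had been seen and given with no test. *Ces2a* held 21.2, 19.2 and 22.5% of the members' summed TPM in DSS controls and 14.6, 13.5, 14.4 and 15.7% in DSS mice labelled knockout. It was the 1 member of 8 whose shares did not overlap between genotypes after DSS, where 0.275% of all genes lay wholly lower and 0.642% wholly higher in mice labelled knockout relative to the members' sum. On water the shares of *Ces2a* overlapped, at 18.7 to 26.3% in controls and 20.6 to 27.0% in mice labelled knockout, and 0 members were apart. There, 0.127% of all genes lay wholly lower and 1.25% wholly higher on that measure. The members are part of the sum and other genes are not. The shares over all genes are therefore no measure of how rare a member apart is. Of the 28 ratios between members, 2 (7.14%) did not overlap between genotypes after DSS, *Ces1g* over *Ces2a* and *Ces2a* over *Ces2e*, beside 3.86% of all pairs of genes. On water 0 of the 28 were apart, beside 1.56% of all pairs, and nothing is read from these counts.

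Males and females on water could be compared with genotype as a covariate, although sex and cage are the same split. None of the 8 members was called (limma, adjusted p of 0.755 or higher), beside 4 of 11046 genes (0.0362%), which were *Ddx3y*, *Eif2s3y*, *E2f5* and *Gm26992*, and 0 of the 8 had an unadjusted p under 0.05, beside 6.83% of genes in either direction and 3.54% lower in males. The smallest unadjusted p of the 8 was that of *Ces2e*, whose log2 fold change in males over females was 0.34 (interval -0.03 to 0.70, limma adjusted p = 0.755).

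After DSS the mice spread over a wider range for the Ces1 genes than for the Ces2 genes. The highest DSS mouse exceeded the lowest 6.86-fold for *Ces1d*, 5.92-fold for *Ces1f* and 7.00-fold for *Ces1g* on the rescaled scale, and among water mice 2.08-fold, 1.72-fold and 2.56-fold. For the Ces2 genes these folds after DSS were between 1.93 (*Ces2e*) and 3.98 (*Ces2a*), and among water mice between 1.75 (*Ces2b*) and 2.32 (*Ces2c*). DSS mice labelled knockout 2 and 3 and DSS control 1 held the highest 3 places of 7 for each of the 3 Ces1 genes, and for *Ces2e*. DSS mouse labelled knockout 1 held the lowest place for all 8 members on the rescaled scale, and for all but *Ces2b* as deposited. The same 3 mice had the highest stromal marker sums after DSS, at 442, 510 and 435 rescaled TPM, and the other 4 had 119 to 180 TPM. Among water mice, stromal sums were 352 to 1032 TPM and the levels of *Ces1d* were 13.2 to 27.4 TPM. There, controls 2 and 3 and mouse labelled knockout 4 had the highest 3 stromal sums. As deposited, these held places 3, 5 and 2 for *Ces1d*, 1, 2 and 6 for *Ces1f*, and 8, 7 and 5 for *Ces1g*. The order seen after DSS was thus not that on water for *Ces1d* and *Ces1g*. The sum of 49 absorptive genes was 7863 to 12540 TPM in water and 4463 to 6912 TPM in DSS mice. By this sum, the highest 3 DSS mice were control 1, control 3 and mouse labelled knockout 2, and mouse labelled knockout 3 was sixth. The highest 3 for *Ces2a* were the same mice in the same order. The part of stromal or absorptive cells in these levels was not tested.

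Most other genes of the family were at or near 0. *Ces1e* was the only one of the 11 others listed that averaged at least 1 TPM as deposited over all 16 mice. It was at 1.68 to 6.79 rescaled TPM in water and 2.75 to 6.27 TPM in DSS mice, and it was not called for genotype. *Ces1b* and *Ces1c* averaged 1.01 and 1.07 rescaled TPM in water and 0.313 and 0.131 TPM in DSS mice. *Ces1a*, *Ces2f*, *Ces3a*, *Ces3b* and *Ces4a* were listed at 0 in all 16 mice, and *Ces1h*, *Ces2h* and *Ces5a* did not exceed 0.387 TPM as deposited.

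Genes of neighbouring functions are given from lists. Of 36 other ester and lipid hydrolases, 25 had a mean of at least 1 TPM. Of these, 1 lay wholly lower and 0 wholly higher in DSS than in water mice, beside 6.96% and 4.52% of all genes. The median log2 ratio of these hydrolases was -0.01, and 0 were called for genotype. Its most abundant genes were *Pon2*, a paraoxonase, at 49.2 ± 3.55 rescaled TPM in water (n = 9) and 66.3 ± 7.60 TPM in DSS mice (n = 7), *Acot13*, an acyl-CoA thioesterase, at 44.1 ± 4.31 and 38.1 ± 4.66 TPM, and *Abhd2* at 35.4 ± 3.74 and 36.9 ± 1.43 TPM. Of 22 genes of triglyceride resynthesis and lipid droplets, 15 had that level, of which 2 lay wholly lower and 1 wholly higher (median 0.04). *Plin2*, which coats lipid droplets, was at 60.1 to 80.5 TPM in water and 28.7 to 39.7 TPM in DSS mice and did not overlap. *Fabp2*, a fatty acid binding protein of enterocytes, was at 106 ± 28.2 and 159 ± 52.9 TPM, and *Plin3* at 32.3 ± 4.06 and 27.2 ± 2.63 TPM.

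Of 20 transcription factors, 18 had that level, of which 0 lay wholly lower and 1 wholly higher in DSS mice (median -0.04). *Klf4*, a factor of differentiated colonic epithelium, was at 289 ± 59.6 rescaled TPM in water and 154 ± 33.7 TPM in DSS mice, with overlap. *Cdx1*, an intestinal identity factor, was at 123 ± 20.04 and 128 ± 32.9 TPM, and *Nfe2l2*, the NRF2 factor of the oxidative stress response, at 92.4 ± 10.6 and 101 ± 14.9 TPM. Of the 49 genes of the absorptive list of the study, taken without *Ces2c*, 48 had that level. Of these, 13 lay wholly lower and 1 wholly higher, beside 6.96% and 4.52% of all genes, with a median log2 ratio of -0.80. Its most abundant genes, *Lypd8*, *Saa1* and *Car1*, had DSS means of 0.623, 0.470 and 0.691 of the water mean, all with overlap. In the genotype comparison after DSS, the median log2 fold change of the absorptive list was -0.28 and that of the 8 members -0.15, beside 0.02 over all genes tested, and 0 genes of either were called. On water these medians were -0.06, -0.16 and 0.00. At an unadjusted limma p under 0.05 after DSS, 5 of the 48 absorptive genes were lower in mice labelled knockout and 0 higher, beside 1.21% of all genes lower.

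The 5 members with a mean of at least 10 TPM were set beside the 11247 genes by the mean absolute difference of their standardised log2 levels over the 16 mice, where 0 would be the same pattern. The nearest to *Ces2c* were *Stk10*, *Il6ra* and *St3gal1* (0.239, 0.239 and 0.254 SD), each of which was higher in all water mice than in any DSS mouse, unlike *Ces2c*. The nearest to *Ces2a* were *Rbp2*, a retinol binding protein of enterocytes, *Slco2a1*, a prostaglandin transporter, and *2200002D01Rik* (0.256, 0.276 and 0.284 SD). *Cyp2c55*, a cytochrome P450 of the colon, was the nearest to *Ces1d* (0.362 SD), at 129 to 321 rescaled TPM in water and 18.5 to 298 TPM in DSS mice, followed by *Gpc6* (0.371) and *Gpx3* (0.388). The nearest to *Ces1f* were *Arhgap20* (0.397), *Cacna2d1* (0.468) and *Kirrel* (0.520), of which none exceeded 3.30 TPM, and the nearest to *Ces2e* were *Btnl1* (0.430), *Ackr4* (0.466) and *Dapk1* (0.470). The nearest genes lay closer for *Ces2a* and *Ces2c* than for *Ces1f* and *Ces2e*, with *Ces1d* between. The distances include the difference between treatments, known when the members were chosen, and nothing is read from this order. These distances describe 16 libraries that share treatment and tissue, and no test was made on them.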

How the data were processed

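Polyadenylated RNA of EpCAM+ colonic cells from 16 mice was sequenced by the authors in single, stranded reads of 75 bases and quantified with kallisto (submitters' processing notes: kallisto, sleuth, mm10). By the methods, both tools were of version 0.44.0, DSS was given at 3.5% and uninjured mice were taken on day 0, whereas the labels give 3% and day 12 for every mouse. The authors deposited TPM per transcript in 1 table for DSS and 1 for water mice, each scaled on its own, with 28988 transcripts after 385 repeated lines of equal values were dropped. Only APPRIS principal isoforms were listed, so that the TPM of a mouse summed to 487469 to 861109. The deposited mean natural log of estimated counts was turned back into a count: the authors' means behind the members ran from 24.5 (*Ces2b*) to 319 (*Ces2e*) in the DSS table and from 12.3 to 324 (*Ces2c*) in the water table. Deposited p-values, q-values and ratios of genotype were not used. By the labels about 10000000 reads were obtained a sample, TPM does not give the depth of each library, and few mice a group limit the precision.

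TPM was summed by gene symbol. Median-of-ratios factors over 9936 genes above 0 in all mice (0.905 to 0.940 in water, 1.13 to 1.24 in DSS mice) gave the rescaled TPM. Because the tables were scaled separately, no test was made between treatments. Genotype and sex were tested with R 4.3.3 and limma 3.58.1 (trend of the variance, log2(TPM + 1)), over those genes that averaged at least 1 TPM, and Benjamini-Hochberg adjusted p-values under 0.05 were called. A fold change on this scale understates that of low genes. The test was tested on simulated data. The members and lists were chosen with earlier results of these data known. Genes named are the members, *Tnfrsf1b*, other carboxylesterases, the 3 most abundant genes of each list and the 3 genes nearest in pattern to members that averaged at least 10 TPM. Coding sequences, positions and windows of 31 bases came from GENCODE M21, and upstream windows from RefSeq. Python 3.11.15, numpy 2.4.6, pandas 2.3.3, matplotlib 3.10.9 and Biopython 1.88 were used. Alternatives were another pseudocount (0.1), no filter or 5 TPM, other normalizations, array weights, cage or replicate number as a term, levels relative to epithelial markers, ranks, and leaving out each mouse. Restriction to females, counts on the other scales within a genotype and ratios of members between genotypes were added after seeing the data.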

Additional observations from a re-analysis of the deposited data

How the results depend on the processing

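No member was called for genotype or sex under any of 178 alternatives or 200 fits without a mouse, and the direction was kept in 166 and 174 of them. The log2 fold changes of *Ces1d*, *Ces1f* and *Ces2g* between genotypes on water kept their sign in all, and that of *Ces1f* ran from -0.53 to -0.46 without a mouse, with adjusted p of at least 0.517 in every fit. Others turned near 0. *Ces2b* after DSS turned to -0.050 (pseudocount 0.1), -0.0034 (median-of-ratios), -0.014 (quantile), -0.10 (array weights) and -0.037 (cage), and on water to 0.062 (quantile) and 0.010 (array weights). With array weights, *Ces2g* turned to 0.014 after DSS, and in males to -0.030, as did *Ces2b* to -0.014. *Ces1f* in males turned to 0.0042 without genotype as a term.

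Without 1 mouse, the log2 fold changes after DSS ran from -0.94 to -0.46 (*Ces2a*), -0.22 to 0.65 (*Ces1d*), -0.70 to 0.097 (*Ces1f*), -0.14 to 0.64 (*Ces1g*), -0.25 to 0.14 (*Ces2b*), -0.49 to 0.11 (*Ces2c*), -0.28 to 0.099 (*Ces2e*) and -0.40 to 0.076 (*Ces2g*). On water those that turned ran from -0.31 to 0.050 (*Ces2a*), -0.12 to 0.015 (*Ces2b*) and -0.24 to 0.047 (*Ces2e*), and in males from -0.18 to 0.059 (*Ces1d*), -0.045 to 0.10 (*Ces2b*) and -0.092 to 0.098 (*Ces2g*). For *Ces1d*, *Ces1f* and *Ces1g* after DSS, the lowest was without mouse labelled knockout 2 and the highest without mouse labelled knockout 1. The unadjusted limma p of *Ces2a* after DSS was under 0.05 without control 2 and without mouse labelled knockout 2, and its adjusted p was not.

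Of all genes, 0 were called for genotype after DSS with a pseudocount of 0.1, without a filter or with the replicate block, and 0 to 3 without a mouse. On water 0 were called with a pseudocount of 0.1, at 5 TPM or with the replicate block, 4 without a filter, 2 after quantile normalization and 1 to 2 without a mouse. For sex, 3 to 7 were called without a mouse. The cause was not tested. With the replicate block, *Ces2e* after DSS turned to 0.026. Same-numbered mice did not deviate together (r of -0.20 to -0.025 after DSS and -0.077 to 0.093 on water). So few pairs cannot exclude that the numbers pair the mice, and the block changed no call of a member.

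The summed level was lower after DSS on every scale and without any mouse (log2 ratio of -0.76 in controls, -0.41 as deposited, and of -0.69 in mice labelled knockout, -0.32 as deposited). The count of members wholly lower after DSS over all mice was 0 as deposited, relative to epithelial markers, by rank and in females alone, and 0 to 2 without a mouse. Within a genotype it was 3 in controls and 3 in mice labelled knockout on the rescaled scale, 1 and 1 as deposited, and 2 and 1 relative to epithelial markers. Over all mice it was 2 without DSS control 1, 1 without DSS control 3 and 1 without water mouse labelled knockout 3. The difference in the Ces1 share remained positive in all fits. With 3 to 5 mice a group, a member that was not called cannot be taken as unchanged. The intervals give the range of differences compatible with the values.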
